A study of Homo sapiens with 8 samples.

Results

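The fibrinogen gene cluster comprises FGA, FGB and FGG, which encode the α, β and γ chains of fibrinogen. On the promoter arrays it was covered by every non-control probe annotated to 1 of the 3 genes by symbol, which gave 3 of 17133 annotated genes and 114 of 474411 probes, with 29 for FGA, 44 for FGB and 41 for FGG. The cells were A549, a line derived from a human lung carcinoma, and were either unstimulated (basal level, 0 ng/ml TGFβ1) or stimulated with 2 ng/ml TGFβ1 for up to 2 h according to the labels, whereas the results of the study give a shorter time. On each array DNA from the SMAD3 immunoprecipitation (SMAD3 IP) was labelled with Cy5 and DNA from the anti-flag control immunoprecipitation (mock IP) with Cy3, so that each value sets the SMAD3 IP of a culture against the mock IP of the same condition. Both conditions had 2 replicates that the labels call biological, and each replicate was hybridised to 2 slides of different probes, which gave 8 arrays. All 114 fibrinogen probes lay on slide 1, so that 4 arrays carry every value below. All cells were of 1 line, and the precipitated DNA was amplified by ligation-mediated PCR before labelling.

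Fibrinogen is the soluble plasma protein that thrombin turns into fibrin, the mesh of a blood clot. It is built from pairs of the α, β and γ chains and is made mainly by hepatocytes, where interleukin-6 raises all 3 genes together in the acute phase response, while lung epithelial cells can make it under inflammatory stimuli. SMAD3 is the transcription factor that TGFβ1 receptors phosphorylate, after which it enters the nucleus and binds short SMAD box sequences together with other factors. ChIP-on-chip measures, probe by probe, how much more of a stretch of DNA came down with the SMAD3 antibody than with the control antibody.

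The genes lie side by side on chromosome 4. In RefSeq (GRCh38.p14) FGB spans bases 154562980 to 154572807, FGA 154583126 to 154590742 and FGG 154604136 to 154612656, with FGB on the plus strand and both others on the minus strand. The array annotation names no genome build, and probes are therefore given by their annotated distance to the start of the gene, with negative values upstream. FGA probes ran from -5433 to 2402 bp, FGB probes from -9966 to 2499 bp and FGG probes from -5438 to 2387 bp. The array placed 13 FGA, 14 FGB and 14 FGG probes inside the gene and the others upstream. Of the FGB probes 18 lay in the promoter region that FGB shares with PLRG1, a splicing factor gene read in the opposite direction, and carry both gene names. Whether a probe fell in an exon or an intron was not analysed here.

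The 250 bases before the RefSeq start of each gene are shown. They were chosen because the known liver control elements of these genes lie there and the array had probes annotated at such distances. All 3 genes had a match in the promoter table, and FGB had 2 overlapping entries, of which the one at the gene's start is shown. Capitals mark matches to CTGGGAA (the core of an interleukin-6 response element) and TGTTTGC (forkhead), on either strand.
FGA, minus strand, chr4:154590743-154590992: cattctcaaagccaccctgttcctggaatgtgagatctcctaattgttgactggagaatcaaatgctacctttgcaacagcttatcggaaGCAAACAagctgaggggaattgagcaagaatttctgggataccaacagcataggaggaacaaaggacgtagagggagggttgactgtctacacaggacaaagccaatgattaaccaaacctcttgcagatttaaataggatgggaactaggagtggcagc
FGB, plus strand, chr4:154562730-154562979: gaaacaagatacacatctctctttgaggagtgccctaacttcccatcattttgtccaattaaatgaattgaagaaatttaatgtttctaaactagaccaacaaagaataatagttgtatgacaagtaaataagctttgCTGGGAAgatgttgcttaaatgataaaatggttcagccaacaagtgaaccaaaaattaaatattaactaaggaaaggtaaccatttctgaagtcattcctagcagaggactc
FGG, minus strand, chr4:154612657-154612906: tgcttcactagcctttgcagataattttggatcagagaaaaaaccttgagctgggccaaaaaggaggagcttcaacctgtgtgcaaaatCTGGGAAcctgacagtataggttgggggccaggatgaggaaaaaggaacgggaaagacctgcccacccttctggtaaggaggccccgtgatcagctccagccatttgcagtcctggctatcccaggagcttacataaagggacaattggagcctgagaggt

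The interleukin-6 response core was found in FGB, with its first base at -112, and in FGG at -161. It was present in 9.15% of all 35116 promoters searched over the same 250 bases. The forkhead core TGTTTGC was found in FGA at -160 on the reverse strand, against 3.23% of all promoters, and TGTTTAC (2.98% of promoters) in none of the 3. The SMAD box CAGAC was in none of the 3 windows, while 38.0% of all promoters held it. Its shorter form AGAC, which is part of CAGAC and is not capitalised, occurred 1 time in each window and in 77.5% of all promoters. TATAAA was not found in these windows, against 10.7% of all promoters. Such matches describe letters only and say nothing of binding.

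Most of the cluster gave little signal in either channel. Averaged over both channels and all 4 arrays, 27.2% of the values of FGA were well above background, a flag set by the scanner software, with 11.6% for FGB and 12.2% for FGG. Over all 473007 probes that passed the outlier flags the share was 51.3%, and among all 16876 genes with at least 4 probes FGA lay at percentile 16.3, FGB at 2.78 and FGG at 3.11. For 66 of the 114 fibrinogen probes neither channel was well above background on any array, which is 57.9% against 28.3% of all probes. Both channels were well above background on all 4 arrays for 4 fibrinogen probes, 3 of FGA and 1 of FGG. No fibrinogen spot was saturated and none was removed by the outlier flags. Where a channel was not well above background, its processed signal was mostly a surrogate value set by the software, so that the small spread between such replicates is not that of a measured signal.

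**Figure D1:**
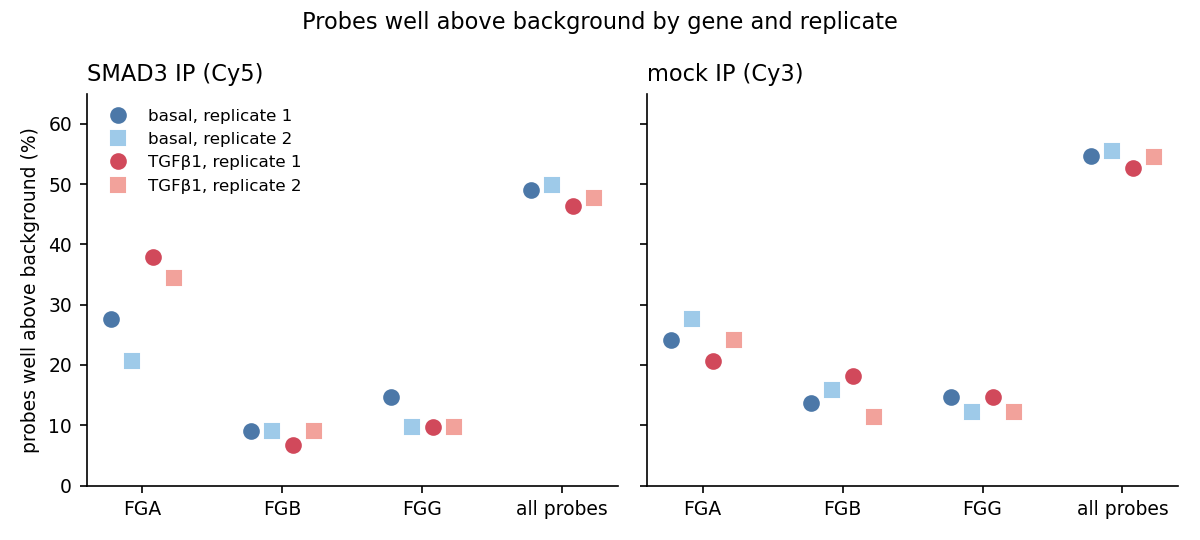
Share of probes well above background (%, vertical axis) in the SMAD3 IP (left) and mock IP (right) for FGA, FGB, FGG and all probes, with 1 point per replicate. All fibrinogen points lie below those of all probes, and FGA after TGFβ1 stimulation in the SMAD3 IP is the highest of the 3 genes at 37.9% and 34.5%.

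The probes well above background in both replicates of a condition were to a large part different ones in the 2 conditions. In the mock IP 12 fibrinogen probes were well above background in both basal replicates and 12 in both TGFβ1 replicates, of which 5 were the same, or 41.7% of each set. In the SMAD3 IP there were 10 and 13, with 5 in common, or 50% and 38.5%. Over all probes the common part was 84.9% and 87.1% in the mock IP and 82.4% and 86.7% in the SMAD3 IP. Replicates of 1 condition also differed. In the mock IP 19 and 20 fibrinogen probes were well above background in the single basal replicates, and 20 and 17 after TGFβ1. In the SMAD3 IP these were 18 and 14, and 18 and 18. Over all probes the mock IP had 258256 and 262511 in the basal replicates and 232854 in both. Across all probes, which are not independent, the log2 ratios of replicates of a condition correlated with r of 0.896 and 0.918. Those of arrays of different conditions correlated with r of 0.204 to 0.227. The mock IP alone also differed by condition, with r of 0.953 and 0.974 within a condition and 0.681 to 0.714 between conditions. For the SMAD3 IP alone these were 0.956 and 0.962, and 0.789 to 0.821.

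The log2 ratio (SMAD3 IP over mock IP, less the median of each array) changed at 15 of the 114 probes between the basal level and TGFβ1 stimulation (limma fitted over all probes, adjusted p under 0.05). It was higher after stimulation at 8 probes, where 10.5% of all probes tested were called higher, and lower at 7, where 12.4% of all probes were called lower. As shares of the cluster these are 7.02% and 6.14%, both below the share of all probes. Probes without signal well above background in either channel on any array made up 57.9% of the cluster and 28.3% of all probes. Whether this lay behind the lower shares was not tested. By gene, 5 probes rose and 1 fell in FGA, 2 rose and 3 fell in FGB, and 1 rose and 3 fell in FGG. The median change over the 114 probes was 0.01, and the median over all probes was 0.00 on the log2 scale. Without TGFβ1 replicate 2 the counts were 5 higher and 4 lower, without basal replicate 1 or basal replicate 2 only 2 were lower, and without TGFβ1 replicate 1 there were 3 lower. With the normexp background correction 5 were higher and 2 lower.

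**Figure D2:**
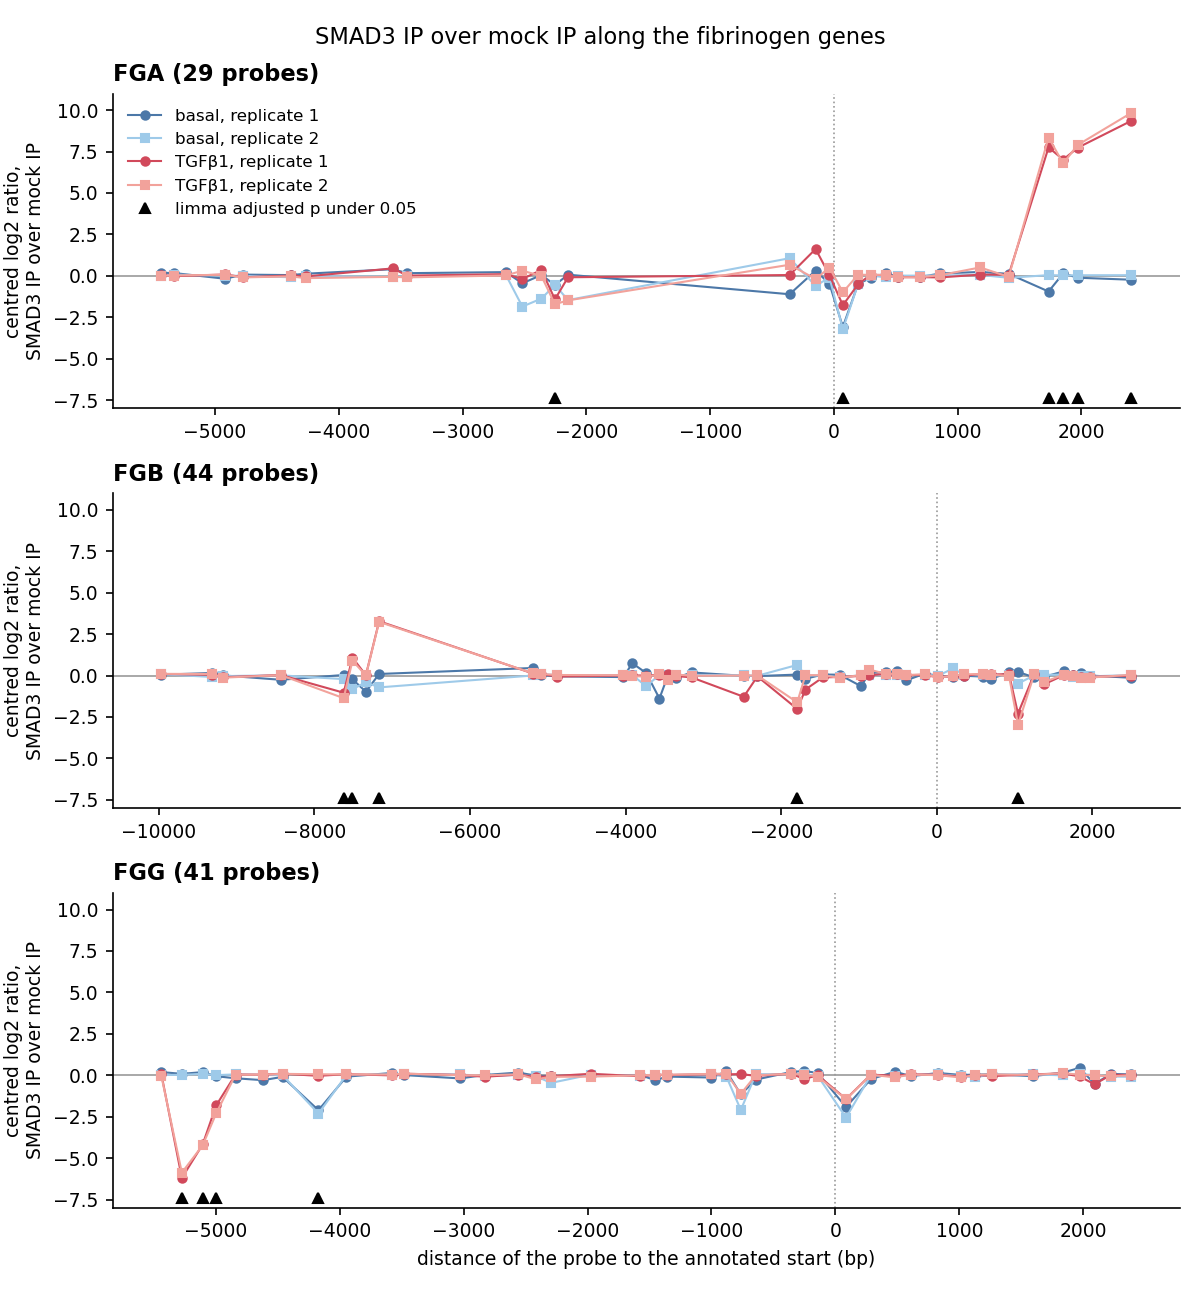
Centred log2 ratio, SMAD3 IP over mock IP (vertical axis) against the distance of each probe to the annotated start (bp, horizontal axis) for FGA, FGB and FGG, with 1 line per replicate and triangles at the 15 probes with a limma adjusted p under 0.05. The last 4 FGA probes rise to between 6.78 and 9.83 after TGFβ1 stimulation, and the FGG probes from -5273 to -4996 bp fall to between -1.82 and -6.20.

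FGA, the gene of the α chain, whose cleavage by thrombin starts fibrin assembly, had the largest change of the cluster. It lay inside the gene, in the last 4 probes annotated to it, from 1734 to 2402 bp downstream of the start and 668 bp long. At 1734 bp the basal replicates had log2 ratios of -0.95 and 0.04 and the TGFβ1 replicates 7.75 and 8.34, a change of 8.50 (SE 0.47, limma adjusted p 0.00437). At 1852 bp it was 0.14 and 0.02 against 7.01 and 6.78, a change of 6.81 (SE 0.14, limma adjusted p 0.00203). The 4 probes stood apart from the basal replicates without overlap, and each kept its call under every alternative that held it. With normexp their changes were smaller, at 3.66, 2.79, 3.46 and 6.10 from 1734 to 2402 bp.

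At 1969 bp the log2 ratio was -0.11 and 0.03 at the basal level and 7.73 and 7.89 after stimulation, a change of 7.85 (SE 0.13, limma adjusted p 0.00203). At 2402 bp it was -0.24 and 0.04 against 9.35 and 9.83, a change of 9.69 (SE 0.24, limma adjusted p 0.00204). Among all probes the mean ratio of these 4 probes after stimulation lay between percentiles 99.8 and 99.9. The probe just before the run, at 1412 bp, had log2 ratios of 0.12 and -0.12 at the basal level and 0.06 and -0.06 after stimulation, and was not well above background in either channel on any array. No probe beyond 2402 bp is annotated to FGA, so the far edge of the run was not seen.

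The change at these 4 probes lay in the SMAD3 IP, whose signal alone rose at each of them (limma adjusted p 4.7e-06 to 2.4e-05), while the mock IP alone did not pass the test (limma adjusted p 0.699 to 0.890). At 2402 bp the processed SMAD3 IP signal was 124 and 52.8 units in the basal replicates, neither well above background, and 105401 and 102960 units after TGFβ1 stimulation, while the mock IP gave 124 and 36.6 units and then 122 and 73.1 units. At 1734 bp the SMAD3 IP signal was 107 and 53.7 units against 13236 and 19639 units, and the mock IP signal 176 and 37.2 units against 46.5 and 39.1 units. Because the basal SMAD3 IP was not well above background, only a lower bound can be given, and the SMAD3 IP was at least 230-fold higher after stimulation at 1734 bp, at least 117-fold at 1852 bp, at least 213-fold at 1969 bp and at least 1390-fold at 2402 bp. After stimulation the SMAD3 IP exceeded the mock IP at least 252-fold, 119-fold and 214-fold at the first 3 of these probes. These bounds set the mean normalised log2 signal of the bright replicates against the lowest signal well above background on each array or the dim probe's own signal, whichever was higher. They hold for that normalisation (Aquantile), and where the channel test, which was scaled to the 75th percentile, gave a smaller change, that change is printed beside the bound. As no dyes were swapped, bounds between the channels are open to dye bias.

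**Figure D3:**
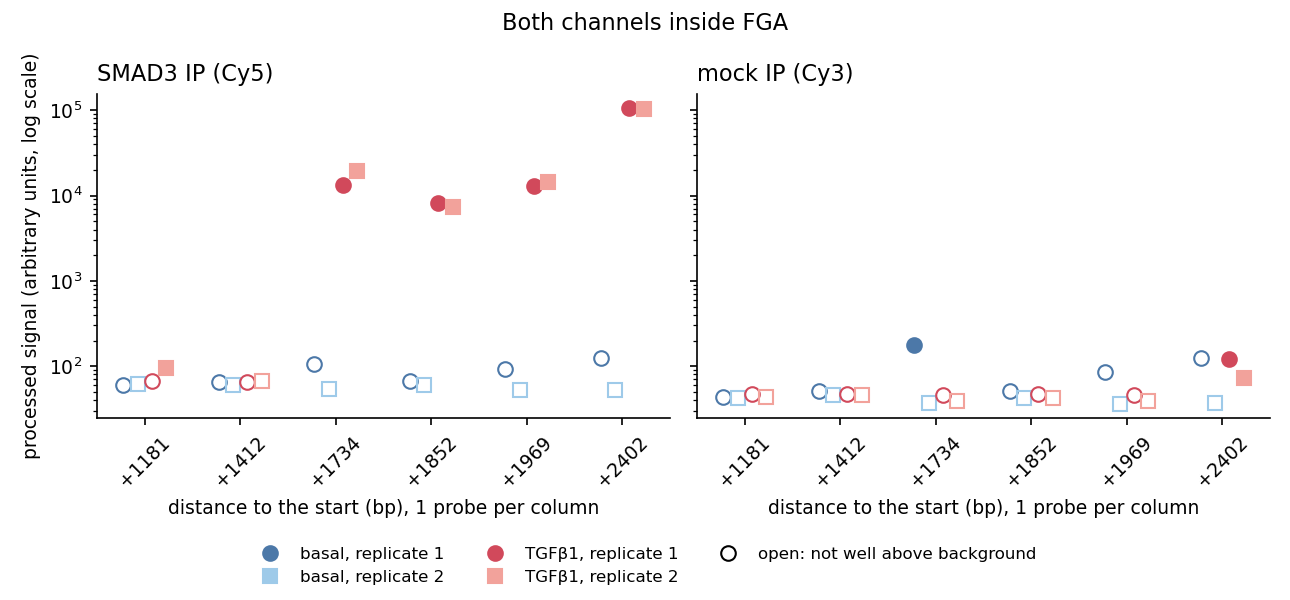
Processed signal (arbitrary units, log scale) of the SMAD3 IP (left) and mock IP (right) at the FGA probes from 1181 to 2402 bp, with 1 symbol per replicate and open symbols where the signal was not well above background. After TGFβ1 stimulation the SMAD3 IP of the last 4 probes lies between 7266 and 105401 units, while the mock IP stays at or below 122 units in the same replicates.

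Only 2 other FGA probes changed. The probe 72 bp downstream of the start had log2 ratios of -3.08 and -3.23 at the basal level and -1.77 and -0.99 after stimulation, a change of 1.78 (SE 0.33, limma adjusted p 0.0465), so that the mock IP exceeded the SMAD3 IP in all 4 replicates. Its mock IP signal fell from 1717 and 2307 units to 192 and 233 units (limma adjusted p 0.00252 for the mock IP alone), while the SMAD3 IP signal was 239 and 344 units and then 74.3 and 181 units. The probe at -2254 bp was bright in both channels on all arrays and had log2 ratios of -0.56 and -0.55 against -1.42 and -1.71, a change of -1.01 (SE 0.15, limma adjusted p 0.0280). Each of these 2 calls was kept under 3 of 10 alternatives. The other 23 FGA probes had changes between -0.15 and 1.21, none of which passed the test.

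FGB encodes the β chain, whose synthesis is often described as limiting for the assembly of fibrinogen in hepatocytes. The study names FGB among targets picked from its SMAD3 promoter arrays. For these its methods give another array format, and its legends another number of replicates, than the files hold. Whether its FGB values came from the same arrays could not be told. They were therefore not taken as independent evidence for SMAD3 binding at FGB. The study also reports lower FGB expression after TGFβ1 on expression arrays, which measure RNA and are not among the arrays here. It adds that the SMAD3 inhibitor SIS3 removed most of the TGFβ1 effects on its targets. The study's methods place array probes within 2000 bp before and 800 bp after a start. Over the FGB probes here in that range, the mean log2 ratio changed by -0.14 (SE 0.14, limma adjusted p 0.427). The highest FGB value lay outside that range, at -7168 bp in the region shared with PLRG1. Its log2 ratios were 0.09 and -0.72 at the basal level and 3.28 and 3.24 after TGFβ1 stimulation. The change at this probe was 3.57 (SE 0.33, limma adjusted p 0.0111). The SMAD3 IP signal there was 75.6 and 54.0 units and then 586 and 593 units, at least 9.78-fold higher, and after stimulation it exceeded the mock IP at least 9.56-fold. The change fell to 0.53 with normexp and the call was lost without either TGFβ1 replicate (limma adjusted p 0.0821 and 0.0815).

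Further upstream the probe at -7510 bp rose from -0.23 and -0.83 to 1.07 and 0.90 (change 1.51, limma adjusted p 0.0408), and the one at -7624 bp fell from 0.03 and -0.22 to -1.04 and -1.36 (change -1.11, limma adjusted p 0.0385). Inside the gene, the probe at 1043 bp fell from 0.22 and -0.49 to -2.29 and -2.96, a change of -2.49 (SE 0.39, limma adjusted p 0.0331). Its SMAD3 IP signal was 676 and 462 units at the basal level and 58.3 and 62.1 units after stimulation, at least 8.86-fold lower (log2 change of -3.04 on the 75th percentile scale), while the mock IP signal was 493 and 462 units and then 216 and 312 units. At -1794 bp the ratio fell from 0.06 and 0.64 to -2.02 and -1.62 (change -2.17, limma adjusted p 0.0238), with a mock IP signal of 61.1 and 55.8 units against 199 and 130 units. The calls at -7510, -7624, 1043 and -1794 bp were lost with normexp and when any 1 replicate was left out, and with normexp the change at -7624 bp was 0.04. The other 39 FGB probes had changes between -0.63 and 0.73.

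In FGG, the gene of the γ chain, which carries the sites for cross-linking and platelet binding, the changed probes lay far upstream and most went down. At -5273 bp the log2 ratio was 0.08 and 0.02 at the basal level and -6.20 and -5.88 after TGFβ1 stimulation, a change of -6.09 (SE 0.16, limma adjusted p 0.00208). At -5105 bp it was 0.19 and 0.08 against -4.17 and -4.23, a change of -4.33 (SE 0.11, limma adjusted p 0.00204). At -4996 bp it was -0.06 and 0.01 against -1.82 and -2.30, a change of -2.03 (SE 0.21, limma adjusted p 0.0137). The 3 neighbouring probes span 277 bp, and in each the replicates of the conditions did not overlap. The call at -4996 bp was lost with normexp (change -0.37) and without basal replicate 1 or basal replicate 2 (limma adjusted p 0.102 and 0.106).

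The SMAD3 IP signal was not lower after stimulation at these 3 FGG probes with negative ratios. Both channels were higher after stimulation at all 3 probes, and the mock IP more so. At -5273 bp the mock IP signal was 53.1 and 40.3 units at the basal level and 10499 and 13414 units after stimulation, at least 268-fold higher, while the SMAD3 IP signal was 66.4 and 57.5 units and then 189 and 353 units, at least 3.93-fold higher. At -5105 bp the mock IP was at least 75.8-fold and the SMAD3 IP at least 3.76-fold higher after stimulation, and at -4996 bp at least 19.2-fold (log2 change of 4.16 on the 75th percentile scale) and 4.68-fold. The limma adjusted p of the channels alone was 0.000123 to 0.00509 for the mock IP and 0.0183 to 0.0307 for the SMAD3 IP at these probes.

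At -4171 bp FGG showed the opposite. The mock IP signal was 9197 and 13231 units at the basal level and 47.7 and 39.5 units after stimulation, at least 241-fold lower, and the SMAD3 IP signal was 2511 and 3743 units and then 61.6 and 63.6 units, at least 53.0-fold lower. On the 75th percentile scale the log2 changes were smaller than these bounds, at -7.78 and -5.44. The log2 ratio went from -2.11 and -2.31 to -0.04 and 0.06, a rise of 2.22 (SE 0.13, limma adjusted p 0.00474), although neither channel was well above background after stimulation, and with normexp the call was lost (change 1.07, limma adjusted p 0.174). A ratio called higher therefore stood beside a lower SMAD3 IP signal at this probe. The 3 probes between these stretches, from -4840 to -4461 bp, were not well above background in any replicate of either condition. The other 37 FGG probes had changes between -0.28 and 1.101, none past the test.

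**Figure D4:**
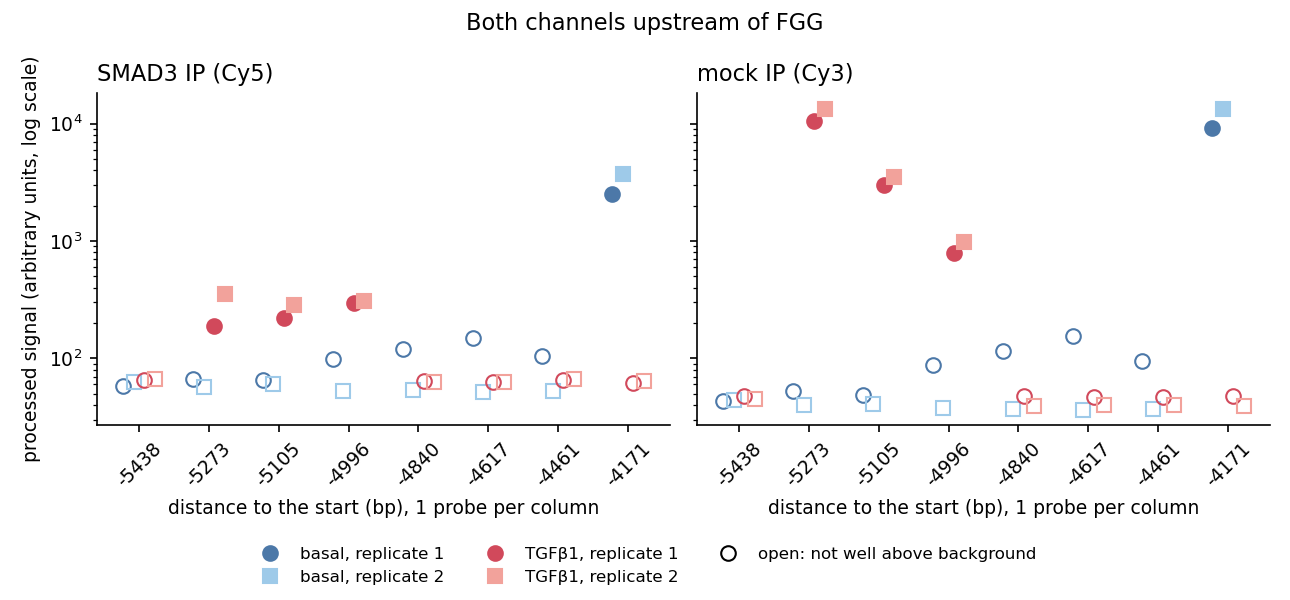
Processed signal (arbitrary units, log scale) of the SMAD3 IP (left) and mock IP (right) at the FGG probes from -5438 to -4171 bp, with 1 symbol per replicate and open symbols where the signal was not well above background. From -5273 to -4996 bp only the TGFβ1 replicates are bright, with a mock IP of 794 to 13414 units, and at -4171 bp only the basal replicates are.

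Counted by channel, 8 fibrinogen probes had a higher SMAD3 IP signal after stimulation and 2 a lower one (limma on the log2 signal less the 75th percentile of the array, adjusted p under 0.05), where 5.40% of all probes were called higher and 5.40% lower. In the mock IP 3 were higher and 2 lower, against 8.93% and 8.20% of all probes. Set against 0, the median of the array, no fibrinogen probe had a ratio above it at the basal level and 4 were below (8.92% and 17.4% of all probes), and after stimulation 6 were above and 10 below (8.22% and 18.5% of all probes). The SMAD3 IP rose at the 4 FGA probes from 1734 bp, at 1 FGB probe (-7168 bp) and at the 3 FGG probes from -5273 to -4996 bp. Only at the last of these sets did a rise of the mock IP pass the test as well. At the FGA probe at 2402 bp the mock IP was well above background only in the TGFβ1 replicates, without passing the test.

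Of the probes near the starts 1 changed, as a rise, where 10.5% of all probes were called higher and 12.4% lower. From 400 bp upstream to 300 bp downstream lay 6 FGA, 4 FGB and 5 FGG probes, of which the FGA probe at 72 bp passed the test. In FGB 3 of the 4 were not well above background in either channel on any array, among them the probe at -157 bp. By its annotated distance, which could not be checked against a build, that probe falls within the window shown above. It had log2 ratios of 0.11 and 0.04 at the basal level and 0.02 and 0.08 after stimulation. The FGG probe at -143 bp was likewise not well above background on any array, with 0.14 and -0.03 against 0.00 and -0.08. The FGA probe at -148 bp had log2 ratios of 0.31 and -0.60 against 1.62 and -0.19, so that the replicates of the conditions overlapped (limma adjusted p 0.625). The FGG probe 86 bp downstream of the start was bright in both channels on all arrays and had a higher mock IP than SMAD3 IP in each, with -1.92 and -2.56 against -1.43 and -1.45 (change 0.80, SE 0.27, limma adjusted p 0.168).

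Averaged over all its probes, FGA had a mean log2 ratio of -0.18 and -0.30 in the basal replicates and 1.05 and 1.04 after TGFβ1 stimulation. The change of 1.28 (SE 0.09, 95% interval 1.07 to 1.50, limma over all genes, adjusted p 5.4e-05) lay at percentile 98.1 of all genes, of which 20.9% were called higher and 28.8% lower. Most of its size rested on the run of 4 probes. Their mean was -0.29 and 0.03 at the basal level and 7.96 and 8.21 after stimulation, and that of the other 25 probes was -0.17 and -0.35 against -0.06 and -0.11. The median over the FGA probes changed by 0.00 (limma adjusted p 0.962). From 2000 bp upstream to 800 bp downstream, without the run, the mean changed by 0.43 and stayed called (limma adjusted p 0.0321).

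FGB and FGG did not pass the test by this measure. FGB had mean log2 ratios of -0.03 and -0.04 at the basal level and -0.08 and -0.03 after stimulation, a difference of -0.02 (SE 0.09, 95% interval -0.22 to 0.19, limma adjusted p 0.887). FGG had -0.12 and -0.17 against -0.34 and -0.36, which do not overlap, and a difference of -0.20 (SE 0.09, 95% interval -0.40 to 0.00, limma adjusted p 0.0945). Without its 3 probes from -5273 to -4996 bp the mean of FGG was -0.14 and -0.19 at the basal level and -0.04 and -0.06 after stimulation.

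**Figure D5:**
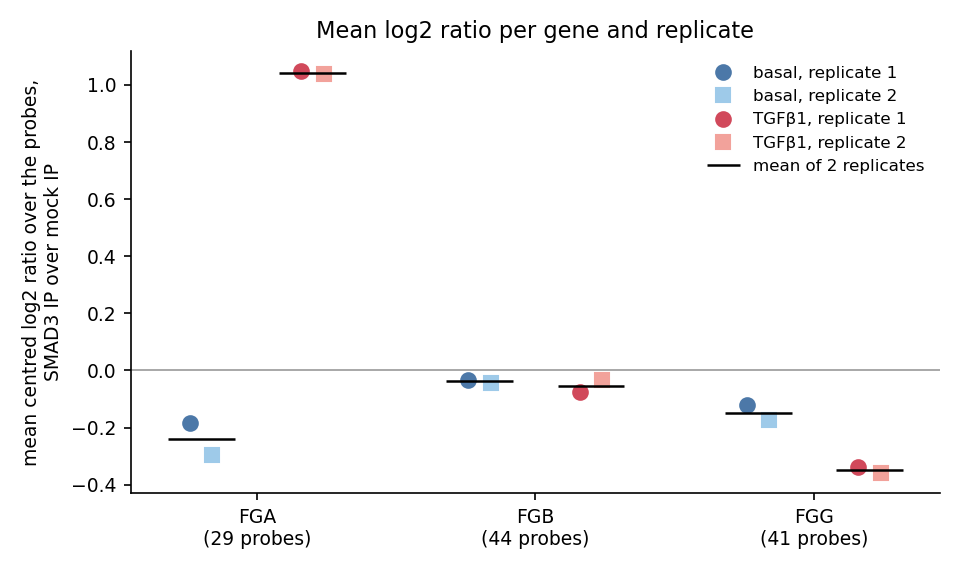
Mean centred log2 ratio, SMAD3 IP over mock IP, over all probes of each gene (vertical axis), with 1 point per replicate and a bar at the mean of 2 replicates. FGA after TGFβ1 stimulation lies at 1.05 and 1.04, and all other points lie between -0.36 and -0.03.

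Against the array median, the mean ratio of FGA was below 0 at the basal level (-0.24, limma adjusted p 0.0131), where 54.6% of all genes were called below 0 and 9.24% above, and the median gene was at -0.24, and this call was lost without basal replicate 2 (-0.18, limma adjusted p 0.203). After stimulation FGA was above 0 (1.04, limma adjusted p 9.3e-06), as were 7.21% of all genes. FGG was below 0 after stimulation (-0.35, limma adjusted p 0.00169), as were 59.0% of all genes, whose median was -0.29. FGB was called in neither condition (limma adjusted p 0.606 and 0.451). Taken by channel, the mean SMAD3 IP signal of FGA over the 75th percentile of the array was -1.67 and -2.43 on the log2 scale at the basal level and -0.82 and -0.80 after stimulation, a difference of 1.24 (SE 0.33) that missed the threshold (limma adjusted p 0.0703) and passed it with a replicate block (limma adjusted p 6.5e-05) and with quantile normalization (1.13, limma adjusted p 0.000249). Without these, no channel of any of the 3 genes passed the test, while 1.73% of all genes were called higher and 1.02% lower in the SMAD3 IP and 9.77% and 5.46% in the mock IP. With normexp the SMAD3 IP of FGA changed by 0.47 (limma adjusted p 0.689). With the array median in place of the 75th percentile it changed by 1.33 (limma adjusted p 0.0852). Leaving out a replicate gave 0.86 to 1.62.

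To describe the profiles, with no test, a peak whose width follows DNA fragments of 200 to 700 bp was placed on each gene by least squares. After TGFβ1 stimulation the best centre in FGA lay at 2117 bp, between the last probes, in both replicates, with a log2 height at percentile 99.9 of all genes. This height, 18.1, is extrapolated into the gap between probes and exceeds every ratio measured in the gene. In FGB the centre lay at -7041 bp in both replicates with a log2 height of 4.07 (percentile 92.2), which dropped to 0.67 (percentile 42.9) with normexp. At the basal level the heights were 0.25 for FGA, 0.28 for FGB and 0.12 for FGG, at percentiles 14.2, 15.4 and 8.23, and the centres differed between the replicates in all 3 genes. FGG had 0.08 after stimulation (percentile 5.20).

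PLRG1, which shares 18 probes with FGB, had mean log2 ratios of -0.14 and -0.18 at the basal level and -0.02 and -0.07 after stimulation (difference 0.12, SE 0.09, limma adjusted p 0.301). LRAT, an enzyme gene of retinoid metabolism on the other side of the cluster, had -0.12 and -0.26 against 0.04 and -0.16 (difference 0.13, SE 0.11, limma adjusted p 0.366). Of the 4 neighbouring genes tested (PLRG1, LRAT, DCHS2 and NPY2R) 2 rose and none fell, against 20.9% and 28.8% of all genes, and the largest rise was at the neuropeptide receptor gene NPY2R with 0.35 (SE 0.10, limma adjusted p 0.0196). The call of NPY2R was lost with normexp, without basal replicate 2 (0.28) and without TGFβ1 replicate 1 or TGFβ1 replicate 2 (0.31 and 0.40).

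Other genes of clotting and of the acute phase are given by counts over fixed lists. Of 20 genes for coagulation factors and their inhibitors 6 were higher after stimulation and 3 lower, or 30% and 15% against 20.9% and 28.8% of all genes, with a median change of 0.02 against -0.05 over all genes. The largest rise was at SERPINC1, the gene of antithrombin, from -3.38 and -3.11 to -0.03 and -0.14 (change 3.16, SE 0.12, limma adjusted p 7.1e-06), and the largest fall at THBD, the gene of thrombomodulin, from 0.37 and 0.37 to -0.92 and -0.68 (change -1.17, SE 0.11, limma adjusted p 0.000153). Of 7 fibrinolysis genes tested 2 were higher and 2 lower, or 28.6% each against 20.9% and 28.8% of all genes. Their median was -0.05, that of all genes. The largest rise was at PLAU, the gene of urokinase (0.45, SE 0.13, limma adjusted p 0.0253), and the largest fall at SERPINF2, the gene of the plasmin inhibitor (-0.41, SE 0.09, limma adjusted p 0.00921).

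Of 16 acute phase genes tested, among 18 listed, 6 were higher and 4 lower, or 37.5% and 25% against 20.9% and 28.8% of all genes. Their median was 0.08 against -0.05 over all genes. SERPINA3, an antiprotease gene, rose from -2.42 and -2.23 to -0.38 and -0.50 (change 1.88, SE 0.10, limma adjusted p 2.3e-05), and HPX, the gene of the haem carrier hemopexin, fell from 0.58 and 0.36 to -0.95 and -0.95 (change -1.42, SE 0.10, limma adjusted p 5.9e-05). Of 11 genes for regulators of fibrinogen expression 3 were higher and 3 lower, or 27.3% each against 20.9% and 28.8% of all genes. Their median was -0.21 against -0.05 over all genes. The largest rise was at IL6R, the interleukin-6 receptor gene (0.70, SE 0.25, limma adjusted p 0.0497), and the largest fall at CEBPA, a liver transcription factor gene (-1.04, SE 0.12, limma adjusted p 0.000427). With normexp HPX kept its call and the other named genes of these lists did not, and with the median over probes none of the 8 did (limma adjusted p 0.0513 to 0.684). From 2000 bp upstream to 800 bp downstream the change was -0.059 at THBD (limma adjusted p 0.760) and 0.0063 at CEBPA. The call of IL6R was lost without basal replicate 2 (0.28), TGFβ1 replicate 1 (0.59) or TGFβ1 replicate 2 (0.81), and those of PLAU (0.27) and SERPINF2 (-0.34) without TGFβ1 replicate 2. SERPINC1 and SERPINA3 had negative ratios at the basal level and ratios nearer to 0 after stimulation, while FGA went from near 0 to above it.

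The genes most like each member were sought over 8 values, the mean log2 signal over the 75th percentile in both channels of the 4 replicates, among 16179 genes with at least 10 probes. Nearest to FGA were IL22RA2, PNPT1 and FLJ37357, with a root mean square difference of 0.17, 0.19 and 0.21, and a change of the mean log2 ratio of 1.32, 0.72 and 0.97. Nearest to FGB were PDE1A, IFNA8 and COX7B2 with differences of 0.03, 0.04 and 0.04, and nearest to FGG were TCHHL1, KCTD6 and OR6N1 with 0.02, 0.05 and 0.05. FGB and FGG were much closer to their nearest genes than FGA was, and FGB and FGG differed from each other by 0.26, where the median difference to all genes was 1.27 for FGB. Neither channel was well above background on any array for 59.1% of FGB and 65.9% of FGG probes, against 44.8% of FGA probes. The mean signals of FGB and FGG therefore rest largely on values at background. FGA differed from FGG by 0.70 and from FGB by 0.82.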

How the data were processed

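Chromatin of A549 cells was precipitated with anti-SMAD3 or anti-flag antibody, amplified, labelled with Cy5 or Cy3 and hybridised by the authors to promoter arrays. The deposited intensities came from Agilent Feature Extraction 9.5.1.1, per the labels, with background removed and trends corrected within each array, the dyes balanced by 1 factor each, a surrogate in place of any signal at background and nothing done between arrays. The authors also deposited log2 ratios of SMAD3 IP to mock IP in a series matrix, which differed from those of the intensities by at most 3.13e-06. The probe annotation names no genome build. The methods of the paper name UCSC hg17 for genomic analyses, beside an array of another format, and the annotation could not be checked against it here.

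Control spots and 1404 outlier probes were left out, spots of 1 probe were averaged, and log2 ratios were centred on the median of each array, with no loess or quantile step. Changes were tested with limma 3.58.1 (lmFit and eBayes, Benjamini-Hochberg at 0.05) in R 4.3.3, over 473007 probes and over the means of 16876 genes with at least 4 probes. Each channel was tested after its 75th percentile was subtracted, and lower bounds used channels normalized between arrays by Aquantile. Python 3.11.15 was used for peak shapes, motifs and figures. Steps were tested on simulated data. All arrays were scanned on the same day. The number of arrays and the signal over background limit the precision, and no counts lie behind the values. Replicates came from 1 cell line, and p-values measure only the spread between them. The members, gene lists and tests were chosen with earlier results of these data known. Named were all fibrinogen probes, PLRG1, LRAT, the largest rise and fall past the threshold in each list, and the 3 nearest genes by signal. RBM46 and PLG matched no probe, and ORM1 and ORM2 had fewer than 4. Some members of the list of regulators are not reported here and were left out of its counts. The alternatives were normexp (offset 50), loess, the series matrix values, a filter for signal well above background (1 or both channels of each array, 212886 probes), a replicate block, separate fits per slide, the mean of 3 neighbouring probes, probes from 2000 bp upstream to 800 bp downstream, the median over probes, other channel scalings, fragments of up to 1000 bp and leaving out each replicate.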

Additional observations from a re-analysis of the deposited data

How the results depend on the processing

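Of the 15 probes called, 6 kept their call under every alternative that held them, namely the 4 FGA probes from 1734 to 2402 bp and the FGG probes at -5273 and -5105 bp. The counts of probes higher and lower were 5 and 2 with normexp, 2 and 2 over probes well above background, 4 lower with loess, and 11 and 6 with the mean of 3 neighbouring probes. Leaving out 1 replicate gave 5 to 6 higher and 2 to 4 lower, with the lone replicate assumed to vary like the others. The FGB probe at -7624 bp turned to 0.042 with normexp. The cause of these shifts was not tested.

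The change of FGA stayed called and positive under every alternative except the median over probes (0.0039), and ranged from 1.23 to 1.34 when a replicate was left out. It was smaller with normexp (0.58), over probes well above background (0.71) and from 2000 bp upstream to 800 bp downstream (0.43). With the median over probes the change of FGB was 0.0070 and of FGG 0.0077, the basal ratios were 0.024, 0.0065 and 0.013 for FGA, FGB and FGG, and those after TGFβ1 0.028, 0.013 and 0.021. With loess the change of FGB was 0.018, and its ratios were 0.013 and 0.031. The series matrix values, which are not centred, had a median gene change of 0.10 against -0.05. With them FGB changed by 0.14, basal ratios were 0.12, 0.32 and 0.21 for FGA, FGB and FGG, and ratios after TGFβ1 were 0.46 for FGB and 0.17 for FGG. From 2000 bp upstream to 800 bp downstream the change of FGG was 0.13, the basal ratios of FGB and FGG were 0.019 and -0.25, and those of FGA and FGG after TGFβ1 were -0.036 and -0.12. Over probes well above background FGA after TGFβ1 was at -0.54, a set without the run of 4 probes, none of which had a channel well above background in both basal replicates. With normexp the basal ratio of FGA was -0.044. Leaving out a replicate gave -0.30 to -0.18 for that ratio and -0.038 to 0.0039 for the change of FGB.

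The replicate numbers are not stated to mark a shared batch, and with 2 pairs they were not taken as pairs. Deviations of the same number correlated with r of 0.021 over all probes, 0.175 over genes and 0.471 over the fibrinogen probes. With a replicate block 7 probes were higher and 6 lower, the change of the SMAD3 IP signal of FGA (1.24) passed the threshold (limma adjusted p 6.5e-05), and no other call of a gene changed. Quantile normalization gave it 1.13 (limma adjusted p 0.000249), and changes of -0.014 and -0.060 in the SMAD3 IP of FGB and FGG and -0.0013 in the mock IP of FGB. Normexp gave SMAD3 IP changes of -0.15 and -0.16 and mock IP changes of -0.14 and -0.074 for FGB and FGG, and the array median in place of the 75th percentile gave 0.16 for the mock IP of FGA. Leaving out a replicate gave SMAD3 IP changes of -0.41 to 0.62 for FGB and -0.37 to 0.49 for FGG, and mock IP changes of -0.55 to 0.22, -0.56 to 0.58 and -0.32 to 0.61 for FGA, FGB and FGG.

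The fitted log2 height of FGA after TGFβ1 was 15.2 with fragments of up to 1000 bp and 10.3 with normexp, and that of FGB 3.11 and 0.67, while the basal height of FGB with normexp was 0.055. Single replicates gave basal heights of 0.59 to 1.05, 0.48 to 0.63 and 0.11 to 0.20 for FGA, FGB and FGG, and 0.069 to 0.12 for FGG after TGFβ1. Among the other named genes, the change turned with the median over probes for PLRG1 (-0.0023), LRAT (-0.0011) and PLAU (-0.51), over probes from 2000 bp upstream to 800 bp downstream for LRAT (-0.14), NPY2R (-0.032) and CEBPA (0.0063), and over probes well above background for NPY2R (-0.12).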
